A study of Mus musculus with 6 samples.

Results

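MicroRNAs of the miR-199 and miR-214 families were examined in fibrotic and control mouse liver. The members were all mouse miRNAs on the array whose name was miR-199a, miR-199b or miR-214 with either arm. This gave 5 of 1247 miRNAs, namely mmu-miR-199a-3p, mmu-miR-199a-5p, mmu-miR-199b-5p, mmu-miR-214-3p and mmu-miR-214-5p, read by 12 of 3105 probes. Fibrosis was induced in male C57BL/6 mice with carbon tetrachloride (CCl4), which injures hepatocytes once it is metabolized, at a dose of 0.6 mL/kg with corn oil as the vehicle, and control mice were given an equivalent volume of vehicle. Both groups were 7 weeks old at the first of the intraperitoneal injections, which continued 2 times per week over 10 weeks. Total RNA of whole liver was labeled with Cy3 and hybridized to 1-color arrays, with 3 livers in each group and 1 array for each liver. In RNA of a whole organ, more cells of a type and more RNA per cell cannot be told apart.

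A miRNA gene is transcribed as a long precursor, from which a hairpin is cut and then trimmed to a 5p and a 3p arm. The arm loaded into the silencing complex pairs with target mRNAs through its seed, bases 2 to 8. In the liver, miR-199 and miR-214 are known from hepatic stellate cells, the vitamin A storing cells that become collagen-producing myofibroblasts upon injury. The transcription factor Twist1 is known to drive the precursor of miR-199a-2 and miR-214, and miR-214 is known to target Ccn2, which encodes a profibrotic growth factor. Stellate cells are defined by mRNAs, which a miRNA array does not measure, so that the cell type could not be checked by its own markers.

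The mature sequences are shown first because the seed decides which arms can share targets. Capitals mark the seed, and the sequences are those of RefSeq on GRCm38.p6, in which 4 of the 5 members were matched.
mmu-miR-199a-3p: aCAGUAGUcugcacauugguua
mmu-miR-199a-5p: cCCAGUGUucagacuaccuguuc
mmu-miR-214-3p: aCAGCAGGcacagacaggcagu
mmu-miR-214-5p: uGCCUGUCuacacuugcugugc
The seeds of the 4 arms differed from each other. Those of mmu-miR-199a-3p and mmu-miR-214-3p shared 5 of 7 positions, whereas 8 of 22 bases were identical over the whole length without gaps. Mature mmu-miR-199b-3p, the other arm of the miR-199b hairpin, has the same 22 bases as mmu-miR-199a-3p and was not on the array under its own name. The signal of mmu-miR-199a-3p therefore cannot be divided among the 3 genes Mir199a-1, Mir199a-2 and Mir199b. The seed of mmu-miR-214-3p is shared by mmu-miR-761, which was not detected on any of the 6 arrays.

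The hairpins show how close the 5p arms of miR-199a and miR-199b are. Capitals mark the mature arms listed in the RefSeq table.
Mir199a-2, chr1:162217814-162217923, plus strand: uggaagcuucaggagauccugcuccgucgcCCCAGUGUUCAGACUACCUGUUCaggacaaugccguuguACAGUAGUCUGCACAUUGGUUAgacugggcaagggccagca
Mir199b, chr2:32318460-32318569, plus strand: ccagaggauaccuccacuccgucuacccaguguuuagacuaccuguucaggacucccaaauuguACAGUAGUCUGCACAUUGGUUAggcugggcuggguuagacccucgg
Mir214, chr1:162223368-162223477, plus strand: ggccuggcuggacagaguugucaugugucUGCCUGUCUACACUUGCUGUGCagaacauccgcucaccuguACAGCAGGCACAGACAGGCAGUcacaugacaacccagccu
Over the 23 bases of mmu-miR-199a-5p, the Mir199b hairpin differed at 1 position, C10U, counted from 1 at the 5′ end of mmu-miR-199a-5p. That position lies outside the seed. Whether a probe for one of these 5p arms also binds the other was not tested, and the letters of the probes were not used here.

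The 4 genes of these families each lie within a dynamin gene, on the strand opposite to it. Mir199a-2 and Mir214 lie on chromosome 1 within the long noncoding RNA Dnm3os, on its strand and opposite to Dnm3. Mir199b on chromosome 2 is opposite to Dnm1, and Mir199a-1 on chromosome 9 is opposite to Dnm2. The promoter of Dnm3os, the host transcript of the miR-199a-2 and miR-214 hairpins, is printed because of members that can come from this transcript. The miR-199a arms and mmu-miR-214-3p had a higher total signal in every CCl4 liver than in any corn oil liver. The opposite arm of miR-214, from the same transcript, was not detected on any array. The detected miR-199b arm, whose gene lies outside Dnm3os, separated the groups in the same way. Whether probes for the miR-199b arm also bind a miR-199a arm was not tested. Whether the separation came from this transcript or from other genes was therefore not tested either. Without normalization, the median log2 change of all tested miRNAs was 0.99. The printed window runs from 250 bases before to 50 bases after the start. Capitals mark E-boxes (CANNTG, the kind of site bound by Twist1) and a CArG box (the kind of site bound by serum response factor).
Dnm3os promoter, GRCm38.p6, chr1:162217373-162217672, plus strand: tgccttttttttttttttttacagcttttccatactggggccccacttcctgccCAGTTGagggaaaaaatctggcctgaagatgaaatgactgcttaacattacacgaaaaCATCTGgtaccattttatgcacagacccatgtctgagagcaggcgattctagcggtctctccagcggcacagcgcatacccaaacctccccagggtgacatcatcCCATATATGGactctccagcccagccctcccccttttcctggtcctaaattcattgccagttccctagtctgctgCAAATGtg
Both strands were searched, and the marked matches do not overlap. The window holds 3 E-boxes and 1 CArG box. Of 32851 promoters of the same length, 72.31% hold an E-box, 17.61% hold at least 3 and 1.629% hold a CArG box. The motifs were chosen after the window had been read, and a match is a description of the letters and not a bound site.

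The arrays differed in ways that touch every value below. Between 186 and 193 miRNAs were detected per corn oil array, against 245, 227 and 334 in the CCl4 group. Detected signal added up to 316413 on the third CCl4 array and to 167865 to 177351 elsewhere. The third CCl4 array thus stood apart, and values without it are given beside the results that it moves. All arrays lay on 1 slide with CCl4 in one row and corn oil in the other, so that position and treatment cannot be told apart. No spot of a member was saturated.

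The miR-199a arms were higher on every CCl4 array than on any corn oil array. Total signal, the background-subtracted intensity summed over the probes of a miRNA, is given first without normalization. For mmu-miR-199a-3p it was 43.6, 35.2 and 58.4 in the corn oil livers and 324, 132 and 533 in the CCl4 livers. The third CCl4 liver was the highest and the second the lowest, and the groups did not overlap. Before normalization the median log2 change of all tested miRNAs was 0.99. Non-overlap of unnormalized totals is therefore not read as a trait of any member. The share of all miRNAs that separated the groups at this stage was not counted. For mmu-miR-199a-5p, the other arm of the same hairpins, it was 12.0, 10.5 and 16.6 in the corn oil livers and 90.6, 38.5 and 143 in the CCl4 livers. The livers fell in the same order as for the 3p arm within both groups. Detected signal summed over a whole array also ranked the CCl4 arrays in this order, so that the order before normalization is not particular to the members. The highest CCl4 value was 4.04 times the lowest for the 3p arm and 3.71 times for the 5p arm, while in corn oil the ratio was 1.66 and 1.59. The lowest CCl4 value was still 2.26 times and 2.31 times the highest corn oil value.

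After quantile normalization over the 166 miRNAs detected on all 6 arrays, mmu-miR-199a-5p rose from 4.25 ± 0.30 to 5.59 ± 0.42 on the log2 scale (mean ± SD, n = 3 livers per group). The log2 change was 1.34 (SE 0.28, 95% interval 0.64 to 2.04, limma adjusted p = 0.032), a 2.53-fold increase past both thresholds of an adjusted p of 0.05 and a fold change of 2. After normalization replicate 1 was the highest of the CCl4 livers for both arms, with 8.11, 7.09 and 7.42 for the 3p arm and 6.05, 5.24 and 5.48 for the 5p arm. mmu-miR-199a-3p had 6.25 ± 0.32 in corn oil and 7.54 ± 0.52 in CCl4. Its log2 change was 1.28 (SE 0.32, 95% interval 0.48 to 2.09, limma adjusted p = 0.059), 2.43-fold, and did not pass the test. When 75th percentile scaling replaced quantile normalization, the 3p arm passed with a log2 change of 1.51 (limma adjusted p = 0.034). The call of the 5p arm was lost when all probes were summed whether or not the software had counted them, with 1.12 (limma adjusted p = 0.051), and when any corn oil array or the first CCl4 array was left out. Without the second CCl4 array the 3p arm was called, and without the third the log2 change was 1.36 for the 3p arm (limma adjusted p = 0.061) and 1.35 for the 5p arm (limma adjusted p = 0.034).

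Of the 3 members in the fit, mmu-miR-199b-5p had the largest change, except with normexp background correction, where its log2 change was 0.90 and that of mmu-miR-199a-3p 0.93. This arm comes from the gene opposite to Dnm1. Its total signal was 10.4, 7.11 and 11.3 in the corn oil livers and 125, 40.8 and 269 in the CCl4 livers. The groups did not overlap, and before normalization replicate 3 was again the highest and replicate 2 the lowest of the CCl4 livers. The CCl4 livers spread more widely than for the other members, with 6.59 times between highest and lowest, and the lowest was 3.61 times the highest corn oil value. Normalized log2 signal rose from 3.79 ± 0.25 to 6.07 ± 0.65 (n = 3 livers per group), and its CCl4 values of 6.53, 5.32 and 6.35 put replicate 1 highest. The log2 change was 2.28 (SE 0.36, 95% interval 1.36 to 3.19, limma adjusted p = 0.016), 4.84-fold, and passed the test. The change was 2.08 without the third CCl4 array (limma adjusted p = 0.023), and the call was lost without any corn oil array or the first CCl4 array.

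Thus 2 of the 3 members in the fit were called higher and none lower, while 7.23% of all 166 tested miRNAs were called higher. For all 3, every CCl4 array was above every corn oil array after normalization, a pattern that 14.5% of the tested miRNAs shared. By size of increase the members stood at positions 5 (miR-199b-5p), 11 (miR-199a-5p) and 13 (miR-199a-3p) of 166. The median change of all tested miRNAs was −0.14, so that the changes relative to it were 2.42, 1.49 and 1.43. Across the 3 members the test rests on the same 6 livers, and arms of 1 hairpin share a precursor, so they are not independent of each other.

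**Figure D1:**
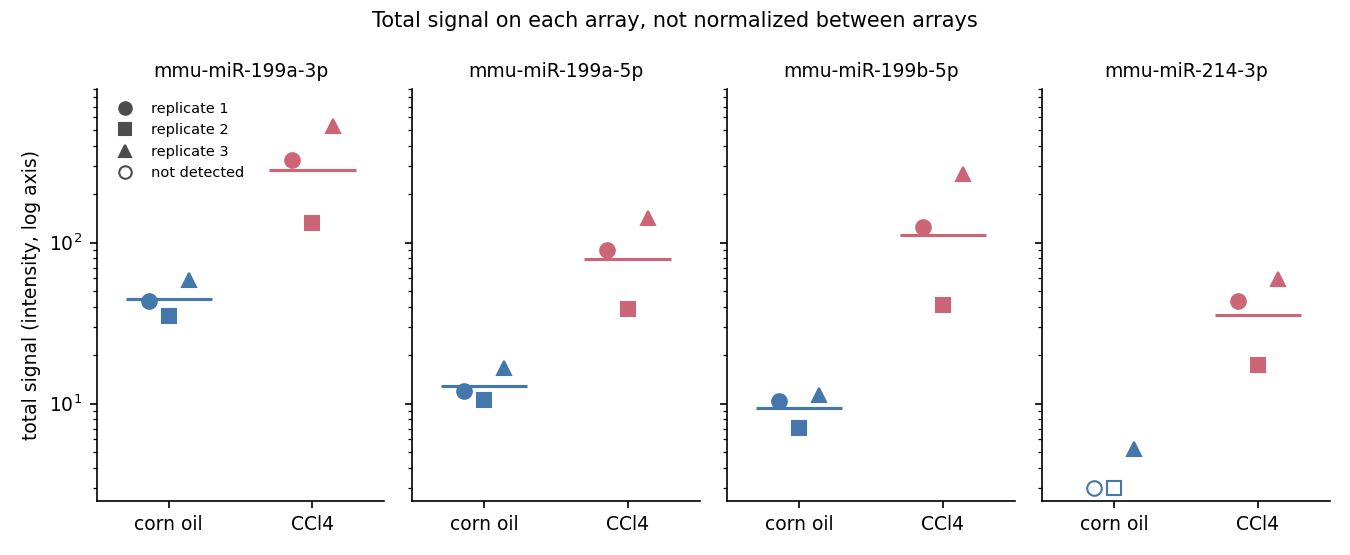
Total signal of the 4 detected miR-199 and miR-214 arms (log10 axis, background-subtracted intensity without normalization between arrays) in the 3 corn oil and 3 CCl4 livers, with marker shapes for the replicate number. Every CCl4 liver lies above every corn oil liver for each miR-199 arm, and the second CCl4 liver is the lowest of its group for all 4 arms. On this scale the median log2 change of all tested miRNAs was 0.99.

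miR-214 could be measured in the CCl4 livers and hardly in the controls. mmu-miR-214-3p, the arm that lies with miR-199a-2 in Dnm3os, was not detected in the first and second corn oil livers and had a total signal of 5.21 in the third. In the CCl4 livers it had 43.4, 17.4 and 59.7, in the same order of livers as the miR-199 arms before normalization. Of the 207 miRNAs detected on all CCl4 arrays, 41 were detected on fewer than 3 corn oil arrays and 12 of these on exactly 1, as was mmu-miR-214-3p. Because it was missing on 2 arrays it did not enter the main fit. Fits that include it need a level for the undetected arrays, here the lowest detected signal of the array. Over the 215 miRNAs detected throughout the CCl4 group, the corn oil group or both, its log2 change was then 2.26 (SE 0.49, limma adjusted p = 0.037), and over all 1247 miRNAs it was 2.52 (limma adjusted p = 0.39). It entered the first of these fits only through the CCl4 arrays, where it was high, and both values depend on the level that was set, so neither is taken as a call or as a bound. mmu-miR-214-5p, the opposite arm, was not detected on any array. None of the spots of its 4 probes was well above background, and its probe signals lay between −0.31 and 1.19, so that no direction can be given for this arm.

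Individual probes were compared to see whether the changes rest on 1 probe sequence. A probe was taken as measured on an array when over 50% of its spots were well above background, and signals were scaled to the 75th percentile of each array. Both probes of mmu-miR-199a-3p were measured on all arrays and were 2.82-fold and 2.86-fold higher in CCl4. The probes of this miRNA thus gave nearly the same change. The brighter probe of mmu-miR-199a-5p was 2.44-fold higher. Its dimmer probe was not well above background in any corn oil liver and was measured on 2 of 3 CCl4 arrays, for an increase of at least 1.40-fold. The brighter probe of mmu-miR-199b-5p was 4.03-fold higher, and its dimmer one, which no corn oil liver raised well above background, at least 3.62-fold. For mmu-miR-214-3p neither probe was measured in a corn oil liver, and the bounds were at least 3.25-fold for the brighter probe and at least 1.21-fold for the dimmer one, which was measured on 2 of 3 CCl4 arrays. Without the third CCl4 array, both probes of mmu-miR-199a-3p were 2.97-fold higher, the brighter probe of mmu-miR-199a-5p 2.59-fold and that of mmu-miR-199b-5p 3.73-fold. The bound of the dimmer mmu-miR-199b-5p probe was then lower, at least 3.25-fold, and that of the brighter mmu-miR-214-3p probe higher, at least 3.58-fold. These bounds set the CCl4 mean against the dim probe itself or, where that was lower, the faintest measured probe of the same array. For the dimmer probes of mmu-miR-199a-5p and mmu-miR-214-3p, the CCl4 mean includes the second array, on which they were not measured. Their 1.40-fold and 1.21-fold are therefore not strict bounds.

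**Figure D2:**
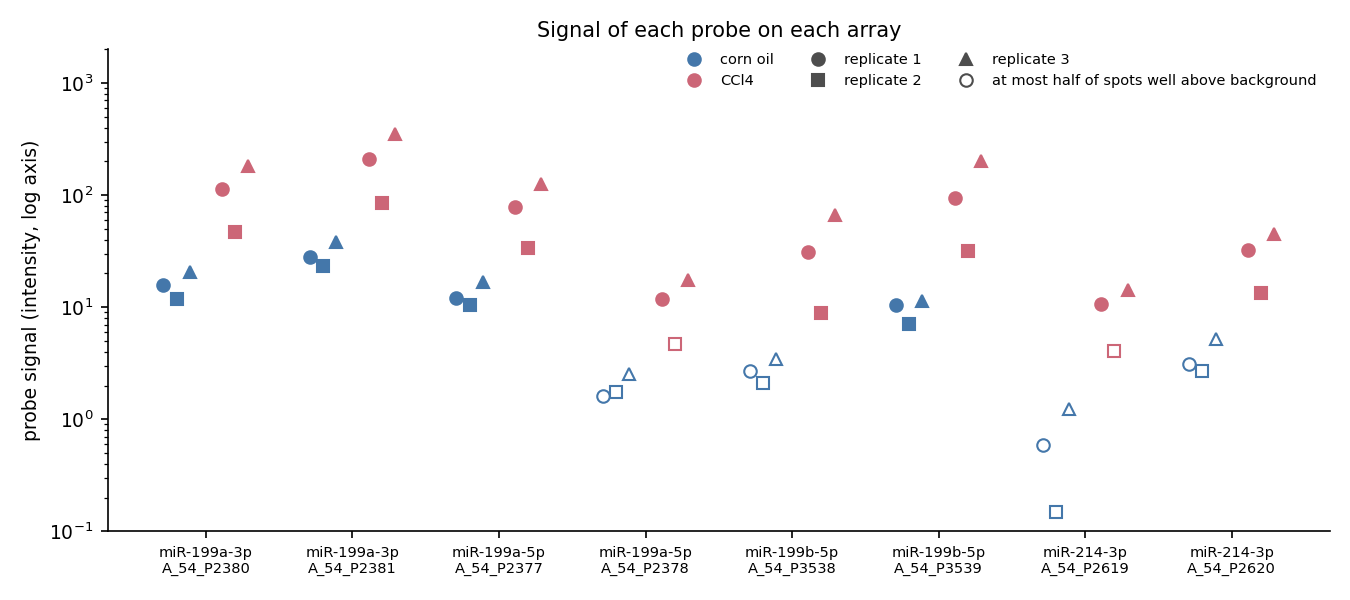
Signal of each probe of the detected members on the 6 arrays, with measured probes as filled points and probes with at most 50% of their spots well above background as open points on a log10 intensity axis. Both probes of miR-199a-3p are measured on every array, whereas the dimmer probes of miR-199a-5p and miR-199b-5p and both probes of miR-214-3p are measured in CCl4 livers only.

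The summing of probes into totals acted unequally on the groups. The software adds a probe to the total only when its signal exceeds 3 times its error, and totals recomputed in this way were within 1% of the deposited ones for all miRNAs on every array. In the corn oil livers the dimmer probes of mmu-miR-199a-5p and mmu-miR-199b-5p fell below that limit and were left out, whereas in the CCl4 livers they were added. The totals of these 2 arms therefore overstate the change. With every probe summed, the log2 change was 1.12 in place of 1.34 for mmu-miR-199a-5p and 1.97 in place of 2.28 for mmu-miR-199b-5p, which was still called (limma adjusted p = 0.027). The brighter probe alone carried a signal of 12.0, 10.5 and 16.6 for mmu-miR-199a-5p in corn oil, which is the whole total, and of 78.7, 33.9 and 126 of the CCl4 totals of 90.6, 38.5 and 143.

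The arms were then compared within each array, where scaling between arrays cancels. For the 3p over the 5p arm of miR-199a, the log2 ratio of total signals was 1.86, 1.75 and 1.81 in the corn oil livers and 1.84, 1.78 and 1.90 in the CCl4 livers. The groups overlapped, and the difference of 0.03 had an exact permutation p of 0.6. With the brightest probe of each arm the ratio was 1.22, 1.15 and 1.19 in corn oil and 1.43, 1.33 and 1.49 in CCl4. These groups did not overlap, and the difference was 0.23 (exact permutation p = 0.1, the smallest that 3 against 3 livers allow). With all probes summed it was also 0.23 without overlap (exact permutation p = 0.1), and with the mean of log2 spot signals 0.10 with overlap (exact permutation p = 0.5). Different probes cannot be set against each other for level, so these ratios show how the arms changed and not which was more abundant.

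The signal of mmu-miR-199b-5p relative to mmu-miR-199a-5p was higher in every CCl4 liver than in any corn oil liver. The log2 ratio of their totals was −0.20, −0.56 and −0.56 in the corn oil livers and 0.46, 0.08 and 0.91 in the CCl4 livers. The difference was 0.92 (exact two-sided permutation p = 0.1, the smallest possible, and 0.15 after adjustment over 3 pairs). With the brightest probe of each it was 0.73, with all probes summed 0.76, and both kept the groups apart (exact permutation p = 0.1). With the mean of log2 spot signals it was 0.85 and the groups overlapped (exact permutation p = 0.2). Against mmu-miR-199a-3p, the change of mmu-miR-199b-5p was larger by 0.89 from totals and by 0.50 from the brightest probes (exact permutation p = 0.1 in both). Without the third CCl4 array, the difference from totals was 0.71 against each miR-199a arm. The design cannot give an exact p under 0.05 for any of these ratios.

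**Figure D3:**
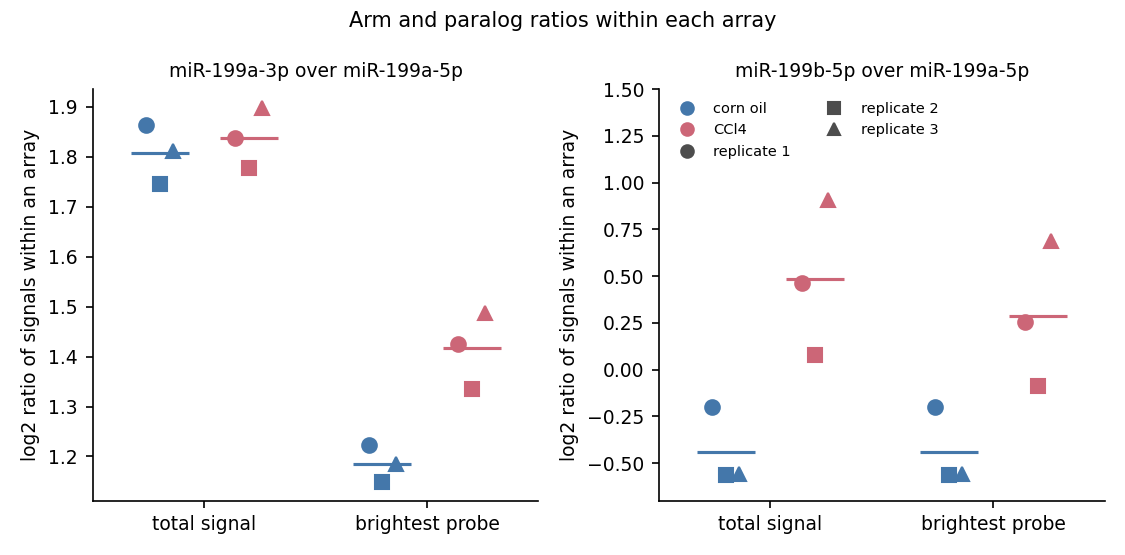
Log2 ratio of signals within an array for miR-199a-3p over miR-199a-5p (left) and miR-199b-5p over miR-199a-5p (right), from total signals and from the brightest probe of each arm, with a bar at the mean of each group of 3 livers. The left ratio overlaps between groups for totals and not for the brightest probes, and the right ratio is higher in all CCl4 livers with both.

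Over the 3 CCl4 livers, the ratio of mmu-miR-214-3p to the miR-199 arms had its smallest SD for miR-199a-5p. This order rests on the third array, since the first and second livers lay closest together for miR-199a-3p. The log2 ratio of its brighter probe to that of mmu-miR-199a-5p was −1.27, −1.34 and −1.47 (SD 0.10). To that of mmu-miR-199a-3p it was −2.69, −2.68 and −2.95 (SD 0.16). To that of mmu-miR-199b-5p it was −1.52, −1.26 and −2.15 (SD 0.46). These 3 livers are a description, and no test of the spread was made.

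The miRNAs with the most similar pattern were found by the root mean square difference of centered log2 signal over the 6 arrays. For both arms of miR-199a the closest miRNA was the other arm, at 0.09. Next came let-7i-5p, at 0.23 for the 3p arm and 0.22 for the 5p arm, with a log2 change of 1.07 (limma adjusted p = 0.022). miR-5119, miR-1949 and miR-3096b-3p followed for both. For mmu-miR-199b-5p the nearest were miR-1949 at 0.40, miR-99b-5p at 0.45 and miR-34a-5p at 0.49, with mmu-miR-199a-5p in the fourth position at 0.52 and miR-466i-5p in the fifth at 0.53. Thus the miR-199a arms resembled each other more closely than any other tested miRNA resembled them, whereas the closest miRNAs to mmu-miR-199b-5p were not members. mmu-miR-199a-3p, which has the same bases as the other arm of the miR-199b hairpin, was not among the 5 nearest to mmu-miR-199b-5p.

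Of 20 other miRNAs known from work on stellate cells, 15 were tested, 1 was called higher and none lower, and 9 of 15 had a change above 0. Over all 166 tested miRNAs 7.23% were called higher and 69 had a change above 0. The share of calls among the tested list members was thus close to the background. It leaves out the 5 list members that were not tested. The median log2 change was 0.15, against −0.14 for all tested miRNAs, and without the third CCl4 array the medians were 0.00 and −0.12. The list is mixed in direction, since the paper describes miR-21 as rising and miR-29a/b as falling in fibrosis. A pooled count or median therefore cannot show whether stellate cell miRNAs moved. The list shares miR-194-5p with the hepatocyte list below, miR-143-3p and miR-145a-5p with the smooth muscle list, and miR-150-5p and miR-155-5p with the leukocyte list. The called member was miR-34a-5p, a p53-induced miRNA, with total signals of 47.9, 29.9 and 29.3 in corn oil and 219, 158 and 752 in CCl4 (log2 change 1.71, limma adjusted p = 0.026). miR-21a-5p, which is induced in many fibrotic tissues and had the highest signal of the list in corn oil, had a log2 change of −0.30 (limma adjusted p = 0.77), which turned to 0.47 without the third CCl4 array. Its total signal was 2735, 2721 and 2630 in corn oil and 4844, 4563 and 2768 in CCl4, with every CCl4 liver above every corn oil liver before normalization. The 5 list members not tested, miR-145a-5p, miR-222-3p, miR-150-5p, miR-155-5p and miR-181b-5p, were not detected in any corn oil liver. Each was detected in CCl4. Total signal in the CCl4 livers was 13.15, 5.03 and 38.8 for miR-222-3p and 7.37, 4.99 and 26.2 for miR-150-5p. miR-145a-5p had 10.85 in CCl4 replicate 1 and 46.8 in CCl4 replicate 3. miR-155-5p had 5.34 in CCl4 replicate 1 only, and miR-181b-5p had 37.2 in CCl4 replicate 3 only. Their changes were not tested.

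Markers of other liver cells also shifted between the arrays, and their part in the result was not tested. Of 6 leukocyte miRNAs, 3 were tested and none was called, with a median log2 change of 0.52, or 0.97 without the third CCl4 array, and their summed total signal was 77.7 to 91.0 in corn oil and 475, 346 and 458 in CCl4. The brightest in CCl4 was miR-223-3p of myeloid cells, with 34.2, 30.1 and 35.8 in corn oil and 223, 170 and 192 in CCl4 (log2 change 1.18, limma adjusted p = 0.18, and 1.75 without the third CCl4 array). Of 4 smooth muscle and fibroblast miRNAs, only miR-143-3p was tested, with a log2 change of 0.68 (limma adjusted p = 0.18), or 0.41 without the third CCl4 array. The summed signal of that list was 14.4 to 17.5 in corn oil and 60.3, 26.7 and 231 in CCl4, and both miR-143-5p and miR-145a-3p were not detected anywhere.

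The hepatocyte list, led by miR-122-5p, had its lowest sum on the third CCl4 array. Its 4 tested miRNAs had a median log2 change of −1.73, or −0.52 without the third CCl4 array, and none was called. The summed signal was 18947 to 20847 in corn oil and 14955, 17730 and 2750 in CCl4. miR-122-5p, the most abundant hepatocyte miRNA, had 16613 to 18345 in corn oil, 13110 and 15544 in the first and second CCl4 livers and 2158 in the third. The endothelial sum was 563 to 678 in corn oil and 824, 821 and 3732 in CCl4, with miR-126-3p as the brightest (log2 change 0.32, limma adjusted p = 0.43) and none of 2 called. Without the third CCl4 array miR-126-3p had 0.09, and the median of the endothelial list turned from 0.13 to −0.08. The red cell sum was 466 to 754 in corn oil and 730, 315 and 2135 in CCl4, with miR-451a as the brightest (log2 change −0.60, limma adjusted p = 0.31) and none of 2 called. The red cell median was −0.55, or −0.72 without that array. Of 5 epithelial and bile duct miRNAs, 2 were tested and none was called, the median was 0.02, or 0.64 without that array, the sum was 10.4 to 48.8 in corn oil and 139, 25.1 and 16.9 in CCl4, and miR-200c-3p and miR-141-3p were not detected on any array.

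**Figure D4:**
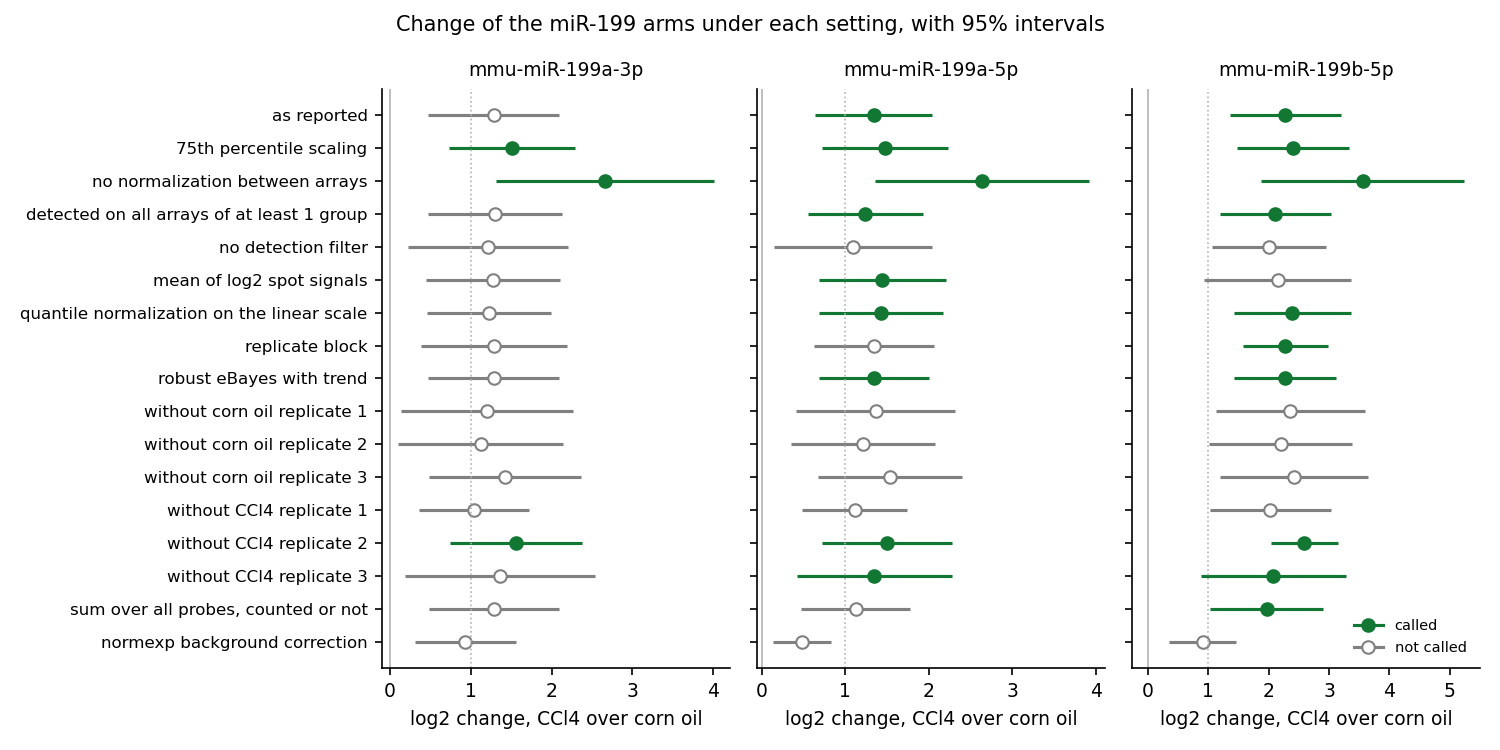
Log2 change (CCl4 over corn oil) of miR-199a-3p, miR-199a-5p and miR-199b-5p as reported and under each alternative setting, with 95% intervals as lines, filled points for calls and a dotted line at a fold change of 2. All changes lie above 0, between 0.48 and 3.56.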

How the data were processed

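Liver RNA of 3 CCl4 and 3 corn oil mice was measured on 1 array each, with 100 ng of total RNA labeled. The authors extracted spot signals with Agilent Feature Extraction 11.0.1.1 (per the submitters' processing notes) and deposited them as background-subtracted intensities on a linear scale, not normalized between arrays, with undetected totals at 0.1. Groups came from the sample labels.

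As in the study's methods, limma 3.58.1 (R 4.3.3) compared treatments, without covariates, on quantile normalized log2 totals of the 166 miRNAs with a detection flag on each of the 6 arrays. Calls needed an adjusted p (Benjamini-Hochberg, over all tested miRNAs) below 0.05 together with a fold change above 2. The paper's own list of dysregulated miRNAs holds no miR-199 or miR-214 arm, whereas this fit called 20 miRNAs with 2 members among them. The reason for the difference was not tested. Ratios within arrays were tested with exact two-sided permutation tests. Python 3.11.15 with numpy 2.4.6, pandas 2.3.3 and matplotlib 3.10.9 was used for tables and plots. In 50 simulated runs of this comparison over 166 miRNAs, of which 20 were changed by 2 (log2), 75.1% of these were recovered, and false calls numbered 0 in the median run and 5 at most. The simulated noise was independent for each array and miRNA, so an array that stands apart, as the third CCl4 array does, was not modeled. The changes of both miR-199a arms were below the simulated size.

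The members and lists were chosen with earlier results of these data known. The text names all members, called and brightest list miRNAs, and the 5 tested miRNAs most like each member detected on all arrays. List miRNAs that were not tested or not detected were named in addition, after their values were seen. Alternatives covered the normalization, the detection filter, the signal per miRNA, the moderation, the replicate number as a block and each array left out. Summing of all probes, the brightest probe and normexp correction with an offset of 50 were chosen after seeing the data. The table of normalized values was not used here, since it lists none of the members. Sequences and gene positions are from RefSeq tables on GRCm38.p6, and no coordinates of the scanner output were used. The number of arrays limits the precision.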

Additional observations from a re-analysis of the deposited data

How the results depend on the processing

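The log2 change of each miR-199 arm stayed above 0 in all 16 alternatives run for it. miR-199a-3p, not called as reported, was called with 75th percentile scaling (1.51) and with no normalization (2.66), which moved the median change of all miRNAs to 0.99 and turned the split of calls from 12 higher and 8 lower to 18 and 0. The call of miR-199a-5p was lost with no detection filter (1.09), with all probes summed (1.12) and with normexp correction (0.48), and that of miR-199b-5p with no filter (2.01), with the mean of spots (2.15) and with normexp (0.90, against 0.93 for miR-199a-3p). With no filter, undetected miRNAs are tied at a floor. The other causes were not tested. Leaving out each array gave changes of 1.04 to 1.56 for miR-199a-3p, 1.11 to 1.53 for miR-199a-5p and 2.03 to 2.59 for miR-199b-5p, differences within arrays of 0.00 to 0.06 (miR-199a-3p over miR-199a-5p), 0.71 to 1.13 (miR-199b-5p over miR-199a-5p) and 0.71 to 1.07 (miR-199b-5p over miR-199a-3p), and 5 to 28 called miRNAs in place of 20. Called miRNAs numbered 32 with detection in at least 1 group, 6 with no filter, 13 with the mean of spots and 4 with normexp.

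The labels do not say whether the replicate number pairs the livers. Deviations of samples with the same number correlated at −0.18, 0.11 and 0.03, and 2 of 6 arrays correlated best with their own number. These few values cannot settle whether the livers were paired. With the replicate block, 6 miRNAs were called, miR-199b-5p among them (2.28, limma adjusted p = 0.042), and miR-199a-5p had 1.34 (limma adjusted p = 0.090) and miR-199a-3p 1.28 (limma adjusted p = 0.13). Depth is limited by signal over background: the dimmer probes of miR-199a-5p, miR-199b-5p and miR-214-3p give bounds at best.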
